A study of Homo sapiens with 6 samples.

Results

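The 10 genes described here are the TCF/LEF transcription factors TCF7, TCF7L1, TCF7L2 and LEF1, and 6 feedback targets of the Wnt pathway, AXIN2, SP5, NKD1, RNF43, ZNRF3 and LGR5. They were found by the symbol that GENCODE release 29 gives to each gene identifier, and all 10 were present among the 58735 genes of the count table. RNA-seq had been performed on cells of the third pharyngeal pouch endoderm (3PPE) derived from H9 (WA09), a human embryonic stem cell line. The 3 siControl libraries came from cells of wild-type genotype given a negative control siRNA, and the 3 siHOXA3 libraries from cells given an siRNA against HOXA3, labelled HOXA3 knockdown. In both groups the siRNA was delivered by lipofection at day 7 of the differentiation, and the cells were harvested at day 9. Both groups had received WNT3A at 50 ng/ml together with Activin A on day 1. From day 4 both were kept with retinoic acid, BMP4, the TGF-β receptor inhibitor SB431542 and 2.5 μM IWP2, an inhibitor of Wnt ligand secretion, until the medium was replaced with opti-MEM after the delivery of the siRNA. The study describes its experiments in general as independent biological repeats and the RNA as extracted in triplicate. Neither this nor the labels say outright that the 3 libraries of a group came from separate differentiations, so the p-values measure the spread between these libraries of 1 cell line, part of which may be technical.

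In the canonical Wnt pathway, β-catenin that escapes degradation enters the nucleus and binds TCF/LEF proteins, which sit on DNA whether or not the pathway is active. Without β-catenin the TCF/LEF proteins recruit corepressors, and TCF7L1 in particular is known as a repressor in pluripotent cells. AXIN2, SP5, NKD1, RNF43, ZNRF3 and LGR5 are transcribed in many tissues when β-catenin is active, and most of their products then feed back on the pathway. AXIN2 is a scaffold of the complex that degrades β-catenin, NKD1 binds and inhibits Dishevelled, RNF43 and ZNRF3 are membrane ubiquitin ligases that remove Frizzled receptors, LGR5 is an R-spondin receptor that restrains these ligases, and SP5 is a zinc finger repressor of Wnt target genes. In the pharyngeal region, Wnt signals are known to act on the endoderm that gives rise to the thymus.

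The sequences just upstream of the start sites are shown because TCF/LEF proteins bind a short element, so the presence of its letters can be read beside the level of each gene. The element was searched on both strands as the core CTTTG and as the longer form CTTTGNNC or CTTTGNNG with A or T at each N, which contains the core. Windows of 250 bases before the start site were taken from RefSeq on GRCh38.p14, where TCF7, TCF7L1, TCF7L2, LEF1, SP5 and RNF43 had an entry and AXIN2, NKD1, ZNRF3 and LGR5 had none. Capitals mark the matches to the core or to the longer form, which reads as CAAAG or with CAAAG at its end where the match is on the other strand. The SP5 window lies at chr2:170715087-170715336, the TCF7L1 window at chr2:85133142-85133391, the TCF7L2 window at chr10:112949997-112950246, and the TCF7 window, before a start site inside the gene, at chr5:134123368-134123617, all on the plus strand.
SP5: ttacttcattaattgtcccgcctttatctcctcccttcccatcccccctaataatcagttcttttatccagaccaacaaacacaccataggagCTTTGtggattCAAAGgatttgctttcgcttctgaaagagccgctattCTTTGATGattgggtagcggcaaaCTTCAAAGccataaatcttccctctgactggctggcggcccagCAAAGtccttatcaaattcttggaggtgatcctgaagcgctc
TCF7L1: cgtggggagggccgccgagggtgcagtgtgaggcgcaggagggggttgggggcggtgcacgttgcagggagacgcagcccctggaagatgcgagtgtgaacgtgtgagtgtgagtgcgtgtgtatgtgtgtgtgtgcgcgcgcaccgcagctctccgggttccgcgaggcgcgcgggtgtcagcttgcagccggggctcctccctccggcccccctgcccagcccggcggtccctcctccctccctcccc
TCF7L2: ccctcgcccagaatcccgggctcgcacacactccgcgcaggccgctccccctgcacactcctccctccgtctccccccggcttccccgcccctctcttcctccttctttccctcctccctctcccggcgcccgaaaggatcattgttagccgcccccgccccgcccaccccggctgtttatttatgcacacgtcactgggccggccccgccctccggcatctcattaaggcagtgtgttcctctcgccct
TCF7: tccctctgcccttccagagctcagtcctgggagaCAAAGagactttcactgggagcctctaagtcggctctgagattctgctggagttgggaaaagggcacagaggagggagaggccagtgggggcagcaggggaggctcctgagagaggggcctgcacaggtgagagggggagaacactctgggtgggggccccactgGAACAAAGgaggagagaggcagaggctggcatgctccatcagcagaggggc

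The SP5 window held 5 cores, of which 2 belonged to the longer form, CTTTGATG from 109 to 102 bases before the start site and CTTCAAAG, on the other strand, from 85 to 78 bases before it. Among all 35116 windows of this length, 42.1% held at least 1 core and 5.6% at least 1 longer form, while 0.085% held 5 or more cores and 0.271% held 2 or more longer forms. The TCF7L1 window and the TCF7L2 window at the first start site held 0 cores. The TCF7 window before 134123618 held 2 cores, 1 of them within the longer form GAACAAAG. Of the other TCF7L2 windows, both before start sites inside the gene, the one before 113126633 held 3 cores and 1 longer form and the one before 113129271 held 1 core. The other TCF7 window, before 134115613 and also inside the annotated gene, had 75 bases in annotated TCF7 exons and held 0 cores. The LEF1 window, before a start site inside the gene, lay wholly in annotated LEF1 exons and held 1 core and no longer form. Both RNF43 windows held 1 core each and no longer form. The RNF43 window before 58417534 was close to the annotated start of the gene, and that before 58402721 was further inside it. These matches are letters in a window and not measured binding.

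Total counts per library ranged from 14117150 to 15282307, and edgeR's filterByExpr kept 16561 genes, which were normalized by the TMM method and expressed as CPM, the count per 1000000 counts of the normalized library. A gene with no reads in a library could still have had up to 3 counts, or 0.197 to 0.211 CPM, when counting error alone is considered. HOXA3, the gene that the siRNA was directed at, had 16.6, 15.9 and 15.5 CPM in siControl replicates 1, 2 and 3 and 10.9, 13.2 and 15.5 CPM in siHOXA3 replicates 1, 2 and 3. Its log2 fold change was -0.27 (95% interval -0.62 to 0.07, standard error 0.157, edgeR adjusted p = 0.828), so the knockdown was not called in these libraries and every direction below is that of the libraries labelled siHOXA3. SiHOXA3 replicate 2 stood apart from the rest. The chi-square per degree of freedom between its counts and those of the other 5 libraries was 28.2 to 34.1, against 4.83 to 11.7 for the other 10 pairs. Within its group its deviations had a Spearman correlation of -0.366 with transcript length over 16561 genes. The same correlation was 0.252 and 0.27 for siHOXA3 replicates 1 and 3, and the 3 values are linked because all deviations are from the same group mean. It was -0.0171 to 0.00304 in siControl. Fold changes without siHOXA3 replicate 2 are therefore also given below for the tested factors and feedback genes.

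The labelled cell type was checked against marker genes. Of 14 pharyngeal and foregut endoderm markers 6 had enough counts to be tested, and the endoderm factors SOX17 and FOXA2 had at most 2 counts in any library. EPCAM had 263 ± 8.23 CPM and EYA1 36.3 ± 4.06 CPM in siControl (SD, n = 3 each). All 8 amnion and trophoblast markers were tested, with a summed level of 2960 to 3220 CPM in siControl and 3060 to 3320 CPM in siHOXA3. Of the mesenchyme markers 7 of 8 were tested and PRRX1 had 0 counts, with a summed level of 3270 to 3510 CPM in siControl and 3550 to 3930 CPM in siHOXA3. Most of this sum was COL1A1, COL1A2 and COL3A1, with means of 1360, 978 and 935 CPM in siControl. PDGFRB had a mean of 114 CPM in siControl, THY1 13.6, PDGFRA 8.74 and TWIST1 3.59. The 7 pluripotency markers, of which 4 were tested, summed to 1260 to 1310 CPM in siControl and 1320 to 1470 CPM in siHOXA3. Most of this sum was LIN28A, with a mean of 1050 CPM in siControl, followed by ZFP42 with 129 and DPPA4 with 102. POU5F1 had a mean of 5.47 CPM in siControl. NANOG had at most 4 counts in any library, PRDM14 at most 1 and UTF1 0. The 7 neural markers summed to at most 5.95 CPM and the 6 liver markers to at most 6.72 CPM in any library. No gene of these 6 lists had an adjusted p under 0.05 by edgeR. In bulk RNA, fewer cells of a type and less RNA per cell cannot be told apart.

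The 10 genes covered a wide range of levels, with TCF7L1 and TCF7L2 far above the rest and SP5, NKD1 and LGR5 near the limit of detection. To compare genes, the CPM of each was divided by the length of its annotated exons in kilobases. On this scale the siControl level was 18.4 ± 2.80 CPM per kilobase for TCF7L1, 15.7 ± 1.21 for TCF7L2, 3.27 ± 0.519 for ZNRF3, 2.16 ± 0.228 for LEF1 and 1.29 ± 0.235 for TCF7 (SD, n = 3 each). It was 0.646 ± 0.0710 for AXIN2, 0.638 ± 0.165 for RNF43, 0.0465 ± 0.0409 for LGR5, 0.0306 ± 0.0270 for NKD1 and 0.0109 ± 0.0188 for SP5 (SD, n = 3 each). Among neighbours in this order, TCF7L1 and TCF7L2 overlapped in siControl, as did AXIN2 and RNF43, LGR5 and NKD1, and NKD1 and SP5. TCF7L1 nevertheless lay above TCF7L2 in 6 of 6 libraries, and in siHOXA3 the ranges of these 2 genes did not overlap. ZNRF3 lay above LEF1 in 5 of 6 libraries, the exception being siHOXA3 replicate 2. Against all 16561 genes tested, the siControl level per kilobase was at percentile 85.6 for TCF7L1 and 82.7 for TCF7L2, at 43.4 for ZNRF3, 35.3 for LEF1 and 26.5 for TCF7, and at 16.1 for AXIN2, just above RNF43.

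**Figure D1:**
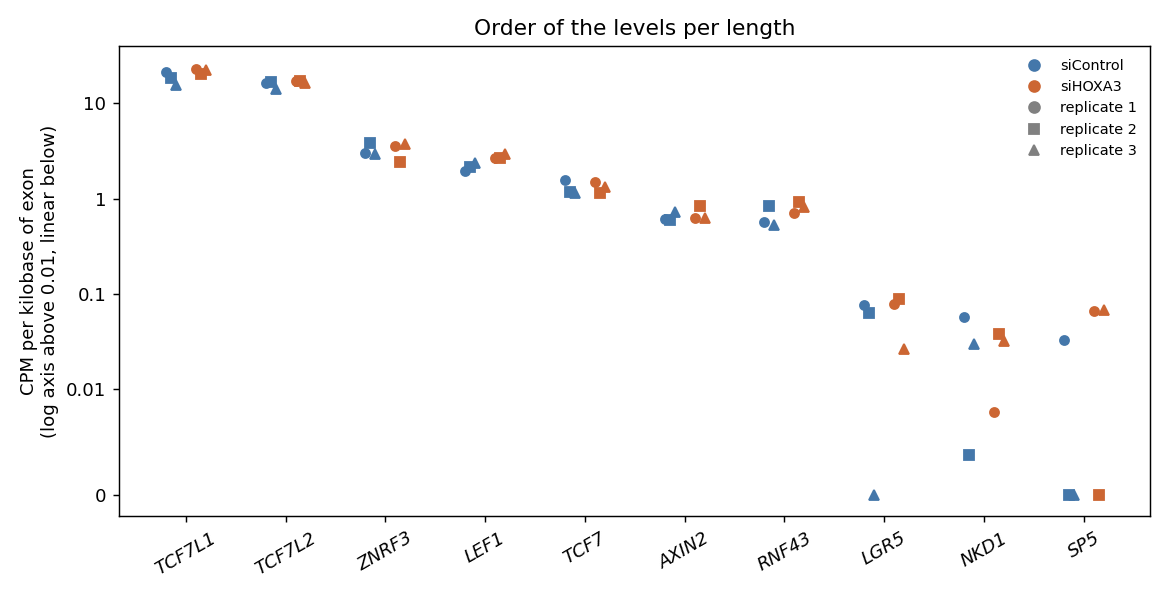
Level of the 10 genes in each library as CPM per kilobase of annotated exon, in the order of the siControl means, on a log axis above 0.01 and a linear one below, with blue points for siControl, orange points for siHOXA3 and 1 shape per replicate number. TCF7L1 and TCF7L2 lie between 14.3 and 22.8, ZNRF3, LEF1, TCF7, AXIN2 and RNF43 between 0.524 and 3.87, and LGR5, NKD1 and SP5 below 0.1 in every library.

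TCF7L1 and TCF7L2 together made up most of the TCF/LEF transcripts in every library. TCF7L1 (ENSG00000152284, chromosome 2 from 85133410 to 85310388 of GRCh38, plus strand) made up 51.9%, 47.9% and 46.6% of the summed level per kilobase of the 4 factors in the siControl replicates and 51.9%, 49.2% and 51.9% in the siHOXA3 replicates. TCF7L2 (ENSG00000148737, chromosome 10 from 112950250 to 113167678, plus strand) made up 39.6%, 43.5% and 42.8% in siControl and 38.7%, 41.5% and 38.2% in siHOXA3. The mean share of LEF1 was 5.83% ± 1.22 in siControl and 6.47% ± 0.385 in siHOXA3, and that of TCF7 was 3.43% ± 0.378 and 3.08% ± 0.291 (SD, n = 3 each). The shares of all 4 factors overlapped between the groups. With the length of the longest transcript in place of all exons, the mean siControl share was 46.4% for TCF7L1 and 43.7% for TCF7L2, and it was 4.13% for TCF7.

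**Figure D2:**
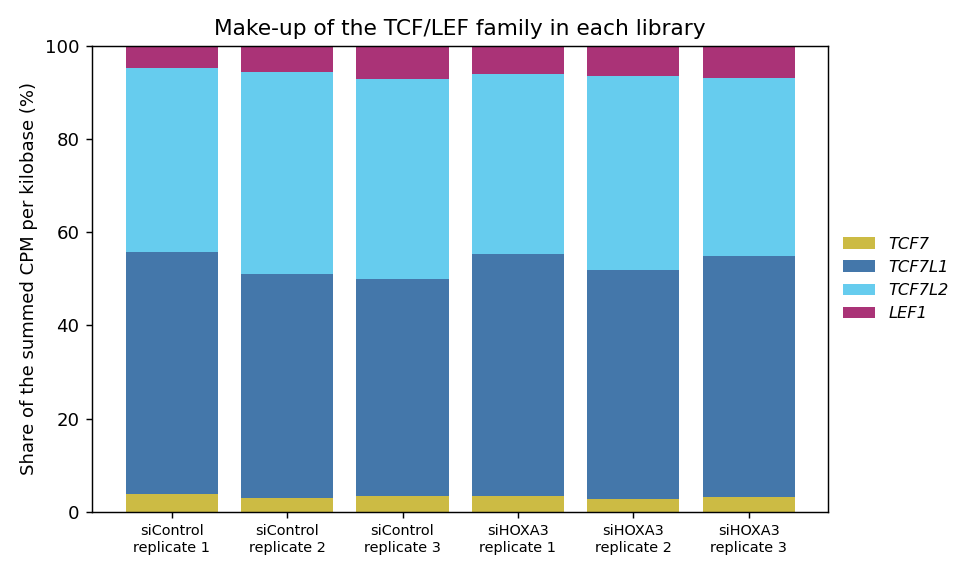
Share of TCF7, TCF7L1, TCF7L2 and LEF1 in the summed CPM per kilobase of the 4 factors, in percent, with 1 stacked bar for each library. The TCF7L1 and TCF7L2 parts fill most of every bar, and LEF1 ranges from 4.74% in siControl replicate 1 to 7.15% in siControl replicate 3.

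LEF1, the factor of the family best known as an activator and itself a Wnt target in many cells, was the only 1 of the 10 genes whose groups did not overlap. LEF1 (ENSG00000138795, chromosome 4 from 108047545 to 108168956, minus strand) had 10.4, 11.4 and 12.8 CPM in siControl replicates 1, 2 and 3 and 14.2, 14.4 and 15.8 CPM in siHOXA3 replicates 1, 2 and 3. All siHOXA3 libraries thus lay above all siControl libraries, as for 6.41% of the genes tested, and a further 6.88% did not overlap in the other direction. For LEF1 the exact permutation test gave p = 0.1 (two-sided), the smallest it can give with 3 libraries against 3. Its log2 fold change was 0.35 (standard error 0.148, 95% interval 0.03 to 0.68), with an unadjusted p of 0.0347 and an adjusted p of 0.741 from edgeR, so the difference was not called. An unadjusted p under 0.05 with a higher level in siHOXA3 was found for 3.79% of all genes. Without siHOXA3 replicate 2 it was 0.37 on the log2 scale (95% interval 0.04 to 0.70, edgeR adjusted p = 0.412). The summed mesenchyme and pluripotency markers, mostly collagen genes and LIN28A, were also higher in all siHOXA3 libraries than in all siControl libraries. Among single markers tested this held for 2 of 7 mesenchyme, 2 of 4 pluripotency and 2 of 8 amnion and trophoblast genes, and their part in the values of LEF1 and TCF7L1 was not tested. LEF1-AS1, which shares 279 exon bases with LEF1 on the opposite strand, had at most 8 counts in a library, against 155 to 224 for LEF1.

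TCF7L1, like TCF7L2, overlapped between the groups through 1 library of each. TCF7L1 had 93.7, 80.7 and 68.9 CPM in the siControl replicates and 101, 88.7 and 99.1 CPM in the siHOXA3 replicates, and the groups overlapped because siControl replicate 1 lay above siHOXA3 replicate 2. Its mean was 81.1 ± 12.4 CPM in siControl and 96.1 ± 6.44 CPM in siHOXA3 (SD, n = 3 each), which gave 0.25 as log2 fold change (95% interval -0.02 to 0.51, standard error 0.123, edgeR adjusted p = 0.791). Without siHOXA3 replicate 2 its log2 fold change was 0.30 (95% interval 0.08 to 0.51, adjusted p = 0.319 from edgeR). Both remaining siHOXA3 libraries then lay above all siControl libraries, as they did for 13.5% of the 17144 genes tested in that fit, of which 0.14% passed an adjusted p of 0.05. An unadjusted p under 0.05 with a higher level in siHOXA3 was then found for 2 of the 7 tested factors and feedback genes, TCF7L1 and LEF1, and for 5.21% of all genes. Without siControl replicate 3 its log2 fold change was 0.14, and without siControl replicate 1 it was 0.36.

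TCF7L2 and TCF7 differed little between the groups. TCF7L2, which was formerly also called TCF4, a name that another gene bears as its symbol, had 109, 112 and 96.6 CPM in siControl and 114, 114 and 111 CPM in siHOXA3. Its log2 fold change was 0.10 (edgeR adjusted p = 0.887, standard error 0.0974), with a 95% interval from -0.12 to 0.31, and it was 0.09 without siHOXA3 replicate 2. TCF7 (ENSG00000081059, chromosome 5 from 134114711 to 134151865, plus strand), the factor best known from T cell development, had 15.7, 11.8 and 11.5 CPM in siControl and 14.9, 11.4 and 13.5 CPM in siHOXA3. The log2 fold change of TCF7 was 0.03 (95% interval -0.35 to 0.41, adjusted p = 0.978 from edgeR), and it was 0.12 without siHOXA3 replicate 2, 0.19 without siControl replicate 1 and negative without siControl replicate 2, siControl replicate 3 or siHOXA3 replicate 1. TCF7 shares 210 exon bases with SKP1 on the opposite strand, which had 1982 to 3193 counts, and whether reads were assigned by strand is not given in the sources used here. TCF7 and LEF1 are each made as long forms and as short forms that lack the β-catenin binding region, and counts per gene do not tell these forms apart.

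**Figure D3:**
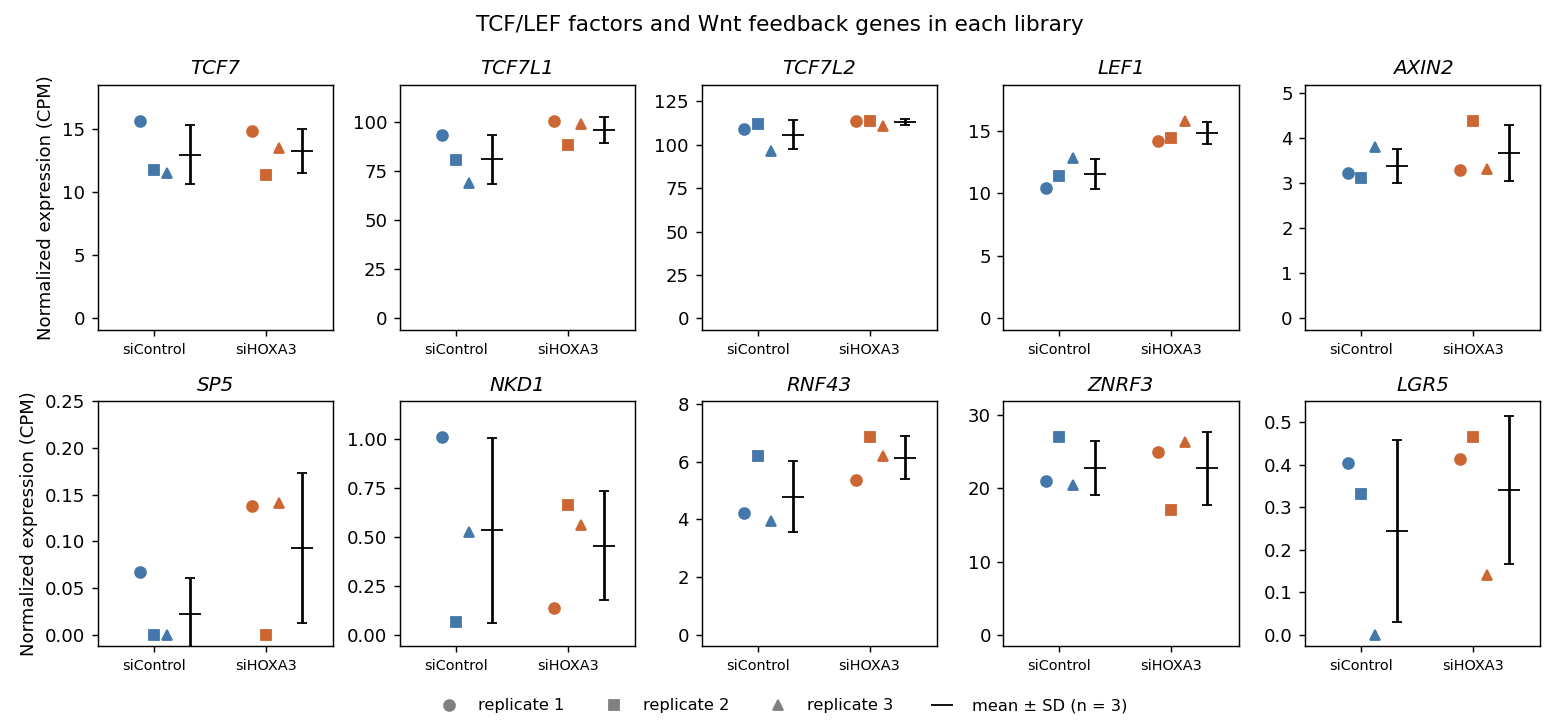
Normalized expression (CPM) of the 10 genes in each library, 1 panel per gene with its own linear axis, with blue points for siControl, orange points for siHOXA3, 1 shape per replicate number, and black bars for the mean ± SD of 3 libraries. The siHOXA3 points of LEF1, from 14.2 to 15.8 CPM, all lie above its siControl points, from 10.4 to 12.8 CPM, and the groups overlap in the other 9 panels.

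Of the feedback genes, ZNRF3 had the highest level and AXIN2, the target most often read as a measure of the pathway, had about 50 counts in a library. AXIN2 (ENSG00000168646, chromosome 17 from 65528563 to 65561647, minus strand) was covered by 48, 47 and 58 reads in siControl replicates 1, 2 and 3 and by 48, 66 and 47 in siHOXA3 replicates 1, 2 and 3. This came to 3.22, 3.11 and 3.80 CPM in siControl and 3.30, 4.39 and 3.31 CPM in siHOXA3, where siHOXA3 replicate 2 was the highest and the other siHOXA3 libraries lay within the siControl range. Its log2 fold change was 0.12 (95% interval -0.41 to 0.65, standard error 0.240, edgeR adjusted p = 0.937) and -0.03 without siHOXA3 replicate 2. AXIN2 shares 24.1% of its stretches of 50 bases with other genes. Of its exon bases 1316 lie in the overlapping gene AC004805.1 on the same strand, which had 0 counts in every library. How reads in shared bases were counted is not given, so the counts of AXIN2 may be incomplete.

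ZNRF3 and RNF43, the paired ubiquitin ligases, overlapped between the groups, and siHOXA3 replicate 2 lay at opposite ends of their values. ZNRF3 (ENSG00000183579, chromosome 22 from 28883592 to 29057487, plus strand) had 21.0, 27.0 and 20.4 CPM in siControl and 24.9, 17.0 and 26.3 CPM in siHOXA3, a log2 fold change of 0.00 (95% interval -0.40 to 0.39, standard error 0.180, edgeR adjusted p = 0.996). SiHOXA3 replicate 2 was the lowest of the 6 libraries for ZNRF3, and without it the log2 fold change was 0.16 (adjusted p = 0.711 from edgeR). RNF43 (ENSG00000108375, chromosome 17 from 58352500 to 58417595, minus strand) had 4.23, 6.21 and 3.93 CPM in siControl and 5.36, 6.85 and 6.20 CPM in siHOXA3. The same library was the highest for RNF43, whose log2 fold change was 0.36 (95% interval -0.15 to 0.86, standard error 0.230, edgeR adjusted p = 0.831) and 0.27 without it. Without siControl replicate 2, the highest of its group, the log2 fold change of RNF43 was 0.59, and with limma-voom and quality weights it was 0.18. RNF43 shares 4326 exon bases with AC004687.2 on the same strand, and 57.0% of its 50-base stretches occur in another gene, so its counts may be incomplete. AC004687.2 itself had at most 3 counts in a library. ZNRF3 made up 69.1% to 72.2% of the summed level per kilobase of the 6 feedback genes in 5 libraries and 56.5% in siHOXA3 replicate 2.

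SP5, NKD1 and LGR5 had too few counts for the test. SP5 (ENSG00000204335, chromosome 2 from 170715351 to 170718078, plus strand), whose upstream window held 5 cores, had 1, 0 and 0 counts in siControl and 2, 0 and 2 counts in siHOXA3, all at or under the limit of 3 counts. NKD1 (ENSG00000140807, chromosome 16 from 50548330 to 50649249, plus strand) had 15, 1 and 8 counts in siControl and 2, 10 and 8 counts in siHOXA3, or 0.532 ± 0.471 CPM against 0.455 ± 0.280 CPM (SD, n = 3 each). LGR5 (ENSG00000139292, chromosome 12 from 71439770 to 71586310, plus strand) had 6, 5 and 0 counts in siControl and 6, 7 and 2 counts in siHOXA3. The groups overlapped for all 3 genes, and at this depth a difference was not detectable. The difference in mean CPM changed sign for NKD1 and LGR5 with 1 library left out, to 0.16 for NKD1 without siControl replicate 1 and 0.0818 without siHOXA3 replicate 1, and to -0.027 for LGR5 without siControl replicate 3.

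Over the 7 genes tested, 0 passed an adjusted p of 0.05 by edgeR's quasi-likelihood test, as did 0.00604% of all genes tested, and 1 (LEF1) had an unadjusted p under 0.05, against 6.36% of all genes. DESeq2 likewise called 0 of them. The log2 fold change was positive for 6 and negative for 1, with a median of 0.12. Over all 16561 genes tested it was positive for 8341 and negative for 8220, with a median of 0.00. Relative to the siControl mean of each gene, 6 of the 7 were higher in siHOXA3 replicate 1, 5 in siHOXA3 replicate 2 and 6 in siHOXA3 replicate 3. In siControl replicates 1, 2 and 3 it was 3, 3 and 2, but these libraries set that mean and are no independent baseline. The same counts per library over all genes were not taken. The 3 untested genes are not part of these counts.

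**Figure D4:**
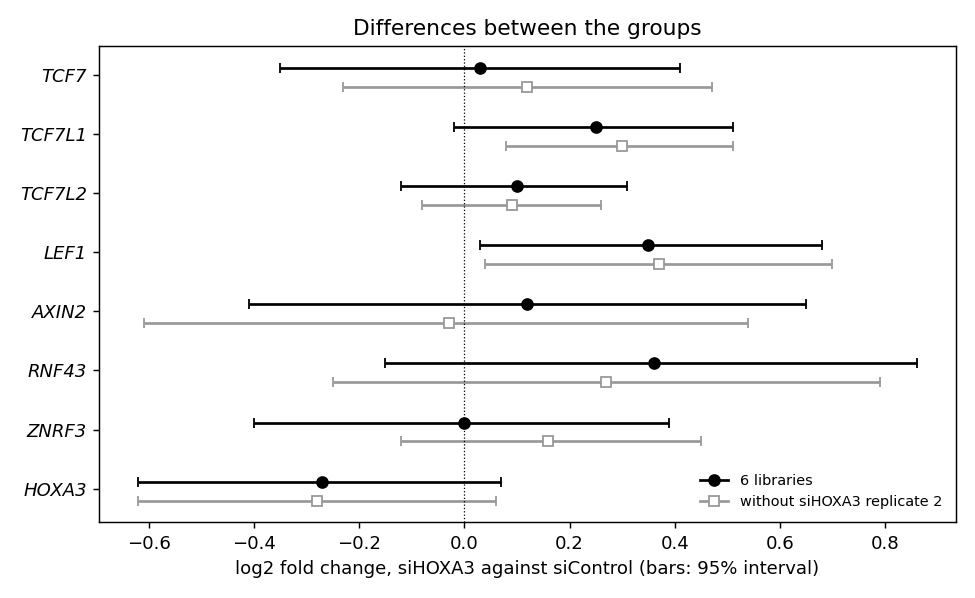
Log2 fold change of the 7 tested genes and of HOXA3, siHOXA3 against siControl, with 95% intervals from edgeR, as black circles for all 6 libraries and grey squares without siHOXA3 replicate 2. The interval of LEF1 lies above 0 in both fits, that of TCF7L1 only without siHOXA3 replicate 2, and the others include 0.

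Among genes for proteins that bind TCF/LEF factors or carry their signal, the transcripts of JUP and CTNNB1 lay above all 10 factors and feedback genes per kilobase. Of 26 partners (β-catenin and coactivators, Groucho/TLE and other corepressors, and inhibitors of the complex) 25 were tested, 0 passed an adjusted p of 0.05 by edgeR, 12 had a positive and 13 a negative log2 fold change, and the median was -0.02. The highest per kilobase in siControl were JUP, which encodes plakoglobin, with 112 CPM per kilobase, and CTNNB1, which encodes β-catenin, with 94.6 CPM per kilobase. JUP had a log2 fold change of 0.01 (adjusted p = 0.984 from edgeR) and CTNNB1 of -0.02 (adjusted p = 0.983), which was -0.12 without siHOXA3 replicate 2, and the direction of both depended on which library was left out. Of the 25, 2 lay higher in all siHOXA3 than in all siControl libraries and 0 lower, beside 6.41% and 6.88% of all genes. These were PYGO2 (log2 fold change 0.16, and 0.10 without siControl replicate 3) and the corepressor TLE1 (0.10, and 0.06 without siControl replicate 3), and the 1 partner with an unadjusted p under 0.05 was TLE5 (0.36), whose groups overlapped, beside 6.36% of all genes. These 3 were named after their values were seen.

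Other genes reported as Wnt targets in various tissues were in part absent. Of 21 such genes 11 were tested and 4 (DKK1, DKK4, CDX4 and TBXT) had no count in any library. Of the 11, 0 passed an adjusted p of 0.05 by edgeR and 0 had an unadjusted p under 0.05, with 5 positive and 6 negative log2 fold changes and a median of -0.10. TNFRSF19 (log2 fold change 0.18, edgeR adjusted p = 0.828) lay higher in all siHOXA3 libraries than in all siControl libraries, as did 6.41% of all genes. EPHB2, an ephrin receptor, and CD44, an adhesion receptor, lay lower in all siHOXA3 libraries, as did 6.88% of all genes. EPHB2 had 138, 124 and 125 CPM in siControl and 114, 80.6 and 123 CPM in siHOXA3 (log2 fold change -0.29, edgeR adjusted p = 0.791), and CD44 had a log2 fold change of -0.45 (edgeR adjusted p = 0.843). Without siHOXA3 replicate 2 the log2 fold change of EPHB2 was -0.13 (edgeR adjusted p = 0.596), and without siControl replicate 1 that of CD44 was -0.22. These 3 genes were also named after their values were seen. The highest per kilobase were BAMBI, a BMP and TGF-β pseudoreceptor, with 62.3, 70.5 and 69.4 CPM in siControl and 71.8, 84.1 and 69.4 CPM in siHOXA3, and the T-box repressor TBX3, with 138, 142 and 136 CPM in siControl and 131, 109 and 148 CPM in siHOXA3. Their log2 fold changes were 0.16 for BAMBI (adjusted p = 0.843 from edgeR) and -0.10 for TBX3 (adjusted p = 0.899), and without siHOXA3 replicate 2 they were 0.06 and 0.01. The value of BAMBI was 0.10 without siControl replicate 1.

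Among 18 R-spondins, their receptors and Frizzled and LRP receptors, 12 were tested and 0 passed an adjusted p of 0.05 by edgeR, with 4 positive and 8 negative log2 fold changes and a median of -0.07. LGR4, the paralog of LGR5, was the highest of them at 24.5 CPM per kilobase in siControl, against 0.0465 CPM per kilobase for LGR5. LGR4 had 141, 158 and 166 CPM in siControl and 134, 130 and 137 CPM in siHOXA3, so that all siHOXA3 libraries lay below all siControl libraries, as did 6.88% of all genes. The log2 fold change of LGR4 was -0.22 (95% interval -0.43 to 0.00, unadjusted p = 0.0513, adjusted p = 0.781 from edgeR). Without siHOXA3 replicate 2 it was -0.20 (95% interval -0.36 to -0.03, unadjusted p = 0.0213, adjusted p = 0.379 from edgeR). FZD6, next in level, had a log2 fold change of 0.09 (adjusted p = 0.890 from edgeR), which was 0.03 without siHOXA3 replicate 2 and 0.05 without siControl replicate 1. FZD8 had 38.9, 36.1 and 35.6 CPM in siControl and 42.9, 43.2 and 43.8 CPM in siHOXA3, also without overlap and in the opposite direction (log2 fold change 0.23, unadjusted p = 0.0458, adjusted p = 0.769 from edgeR), and its log2 fold change was 0.23 also without siHOXA3 replicate 2.

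**Figure D5:**
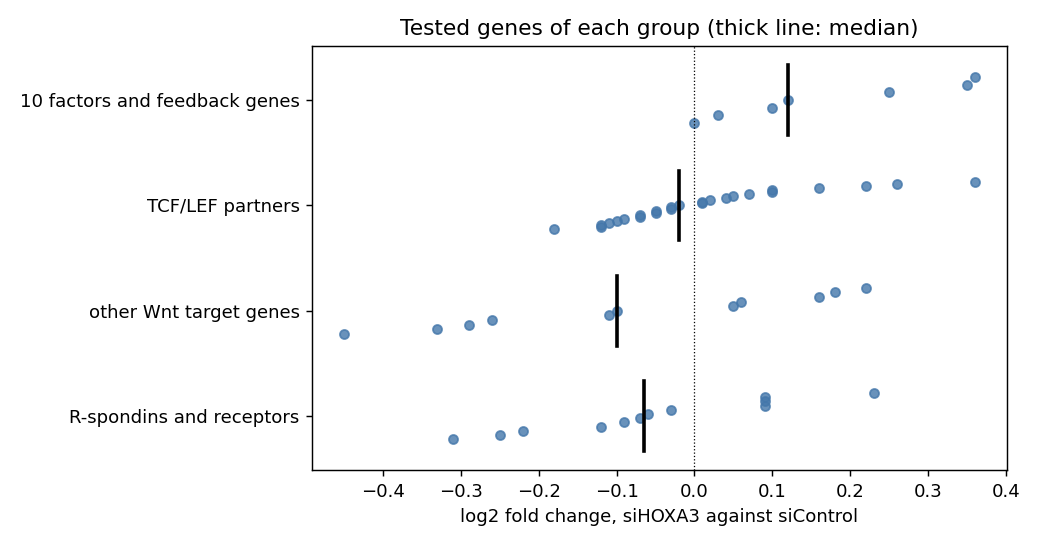
Log2 fold change, siHOXA3 against siControl, of each tested gene among the 10 factors and feedback genes, the TCF/LEF partners, the other Wnt target genes and the R-spondins and receptors, with 1 point per gene and a thick line at the median. The medians are 0.12, -0.02, -0.10 and -0.07 in this order, and no point passed an adjusted p of 0.05.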

How the data were processed

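RNA from 3 siControl and 3 siHOXA3 cultures of H9-derived 3PPE was prepared with the LM-Seq protocol (the labels also name a SMARTER kit) and sequenced as single reads. The authors deposited raw counts of reads per gene as whole numbers, without normalization. The aligner, the counting program, its use of strand and the annotation are not given in the sources used here. The submitters' processing notes name the mouse builds GRCm38 and mm10, although all 58735 identifiers were human and were found in GENCODE release 29 (GRCh38). Groups were taken from the sample titles.

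The test between groups was that of edgeR 4.0.16 under R 4.3.3 (default filterByExpr, TMM, robust quasi-likelihood fit, two-sided test, Benjamini-Hochberg adjustment over 16561 genes). Standard errors were the absolute log2 fold change divided by the square root of the F statistic. Levels per kilobase used the union of annotated exons. DESeq2 1.42.0, limma 3.58.1 and the other alternatives are given in the closing section. The methods were tested on simulated data with planted changes larger than those of the members. That test does not show how well changes as small as those here would be found. Named genes were all members, HOXA3, and from each pathway list the 2 with the highest level per kilobase and those with an adjusted p under 0.05, or an unadjusted p under 0.05 and groups without overlap. The members and lists were chosen with earlier results of these data known. No 2 libraries agreed within sampling noise.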

Additional observations from a re-analysis of the deposited data

How the results depend on the processing

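Under 13 alternatives to the fit with all libraries, none of the 7 tested members and HOXA3 passed an adjusted p of 0.05. LEF1 kept a positive log2 fold change in all of them, from 0.28 to 0.44, with adjusted p-values from 0.246 to 0.997, and so did TCF7L1 (0.14 to 0.36), TCF7L2 (0.035 to 0.14) and RNF43 (0.18 to 0.59). HOXA3 stayed between -0.40 and -0.15. With one library left out TCF7 ranged from -0.060 to 0.19 and was negative without siControl replicate 2 (-0.036), siControl replicate 3 (-0.053) and siHOXA3 replicate 1, AXIN2 ranged from -0.034 to 0.21, and ZNRF3 ranged from -0.12 to 0.16. ZNRF3 was 0.017 with upper-quartile normalization, 0.057 with limma-voom and quality weights and 0.13 without siControl replicate 2. CTNNB1 was 0.0042 with upper-quartile normalization and ranged from -0.12 to 0.061, JUP ranged from -0.047 to 0.070, and TBX3 from -0.20 to 0.0057. For each, the cause was not tested.

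Genes past an adjusted p of 0.05 numbered 1 by edgeR, 38 with DESeq2, 100 with no filter (34513 genes tested), 4 with the replicate block, 67 with limma-voom and quality weights, and 1 to 24 when single libraries were omitted (24 without siHOXA3 replicate 2). The number with an unadjusted p under 0.05 was 1053, 1862 with no filter, 2215 with limma-voom and from 643 (without siControl replicate 2) to 1828 (without siHOXA3 replicate 2), and it was 671 without siControl replicate 3. Over the tested members the median was 0.12 on the log2 scale, 0.19 over all 10 with no filter, 0.16 with limma-voom and 0.14 to 0.19 when single libraries were omitted. The mean siControl share of TCF7 was 4.13% with the longest transcript and 6.28% with the median transcript length, and that of LEF1 was 4.30% with the median transcript length. The sources do not say that replicate numbers mark a shared batch, and libraries of replicates 1, 2 and 3 deviated from their group means with correlations between groups of 0.158, 0.111 and -0.0714, so no pairing was assumed. Under the replicate block no member was called and none changed direction. Precision is limited for AXIN2 and RNF43 by counts of about 50 to 100 a library, and SP5, NKD1 and LGR5 were below the test.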

Other observations

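Several genes that overlap the members, though not SKP1 at TCF7, had few counts. LEF1-AS1 had 1, 2 and 3 counts in siControl replicates 1, 2 and 3 and 6, 8 and 1 counts in siHOXA3 replicates 1, 2 and 3. TSPOAP1-AS1, which shares 1521 exon bases with RNF43 on the opposite strand, had 3, 1 and 0 counts in siControl and 7, 5 and 2 counts in siHOXA3. TCF7L1-IT1, inside an intron of TCF7L1, had 4, 7 and 7 counts in siControl and 6, 10 and 8 counts in siHOXA3. TSPAN8, which overlaps LGR5, had 1 count in 1 library and 0 in the others. These genes were named after their values were seen.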
